A study of Sus scrofa with 6 samples.

Results

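The genes described here are those of fatty acid oxidation and ketone body use in pig lung, around birth. A list of 42 gene symbols was matched to the pig Ensembl gene identifiers of the messenger RNA (mRNA) table, and 32 of the 42 were found among its 14579 mRNAs. CD36 and PLIN2, which had no Ensembl name, were named from the study's table of differentially expressed mRNAs, so a gene without an Ensembl name could enter only if these same data had called it there. The other 10 members, FABP3, FABP4, LPL, SLC22A5, ACADVL, ECHS1, ECI1, EHHADH, ACOT2 and UCP3, were not analysed here. The rule for the list uses symbols alone, but the symbols were chosen with earlier results of these data known.

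Lung tissue was taken from 3 fetal piglets on the last day before birth, delivered by caesarean section, and from 3 neonatal piglets 2 days after birth. All piglets were female Tibetan-Meishan hybrids, the fetal group came from 3 sows and the neonatal group from another 3, reared alike, and each sample was a separate animal. The neonates had been born, had breathed air and were older. These and any other differences between the groups, such as in delivery and feeding, cannot be told apart. Expression was given as FPKM, fragments per kilobase of transcript relative to the total of mapped fragments, a unit that corrects for gene length and sequencing depth.

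A fatty acid reaches oxidation in steps. It is taken up or freed from stored fat, bound to coenzyme A, passed across the inner mitochondrial membrane as a carnitine ester, and shortened in a repeating spiral of dehydrogenation, hydration, dehydrogenation and thiolysis, with electrons leaving through the electron transfer flavoprotein. Many genes of these steps are known targets of the PPAR receptors, which fatty acids activate, and ketone bodies made in liver are turned back into acetyl-CoA in other tissues.

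The lung label was checked against marker genes. SFTPC, the surfactant protein of alveolar type II cells, lay between 3171.3 FPKM and 8790.1 FPKM in the 6 samples. ALB, the albumin gene of hepatocytes, reached at most 0.570 FPKM. Of the other measured hepatocyte markers, APOA1 lay between 8.70 and 32.4 FPKM and TF between 13.1 and 27.1 FPKM. The share of mRNAs at 0 was between 3.03% and 5.68% per sample, and the median FPKM was between 4.99 and 6.11. The median-of-ratios size factor was between 0.908 and 1.009 in the fetal group and between 1.00 and 1.15 in the neonatal group, and the median difference over all mRNAs, neonatal minus fetal, was 0.13 on the log2(FPKM + 1) scale. That scale is used for every difference below, and it understates the change of genes with low FPKM.

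All 5 measured carnitine genes had higher neonatal means, and 2 of them passed the test, CPT1A and SLC25A20, as did ANGPTL4 and PLIN2. CPT2 fell just short (adjusted p = 0.0538 in limma). None of the 13 measured genes of the spiral and its electron transfer passed, although 11 had higher neonatal means. With 5.41% of all mRNAs passing as higher, a count of 0 among 13 genes does not set them apart. CPT1A, the carnitine palmitoyltransferase of the outer mitochondrial membrane and the rate-controlling step of entry, rose 7.35-fold, from 9.37 ± 1.69 to 68.8 ± 3.51 FPKM (SD, n = 3). ANGPTL4, a secreted inhibitor of lipoprotein lipase, rose 7.98-fold, from 1.56 ± 0.743 to 12.4 ± 1.73 FPKM. PLIN2, a coat protein of lipid droplets, rose 3.05-fold, from 4.30 ± 1.12 to 13.1 ± 1.06 FPKM, and SLC25A20, the carnitine-acylcarnitine carrier of the inner membrane, rose 2.03-fold, from 9.0 ± 1.67 to 18.3 ± 3.42 FPKM. These were the 4 of 32 members that limma called (Benjamini-Hochberg adjusted p at or below 0.05), or 12.5%, where 5.41% of all 14579 mRNAs passed in the same direction. No member passed as lower, where 1.45% of all mRNAs did. At an unadjusted p under 0.05 there were 12 members higher and 0 lower, or 37.5% and 0%, beside 17.6% and 6.6% of all mRNAs. Among the 30 members named by Ensembl alone, which leave out PLIN2 and CD36, 3 were called higher, beside 6.05% of the 9478 mRNAs with an Ensembl name, and the median difference was 0.43.

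Over the 32 members the neonatal mean was higher for 24 and lower for 8, counts that became 22 and 10 under median-of-ratios scaling and 21 and 11 under quantile normalization. The median difference of the members was 0.43, beside 0.13 for all mRNAs. All 3 neonatal samples lay above all 3 fetal samples for 13 members, or 40.6%, where the same held for 20.9% of all mRNAs. Among the 30 members named by Ensembl alone it held for 12, or 40%, beside 23.4% of the mRNAs with an Ensembl name. Under median-of-ratios scaling or quantile normalization it held for 9 of the 32 members, and the share of all mRNAs was not taken there. The neonatal samples lay below all 3 fetal samples for 1 member, ACAT1, where 9.64% of all mRNAs did. For the other 18 members the groups overlapped.

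**Figure D1:**
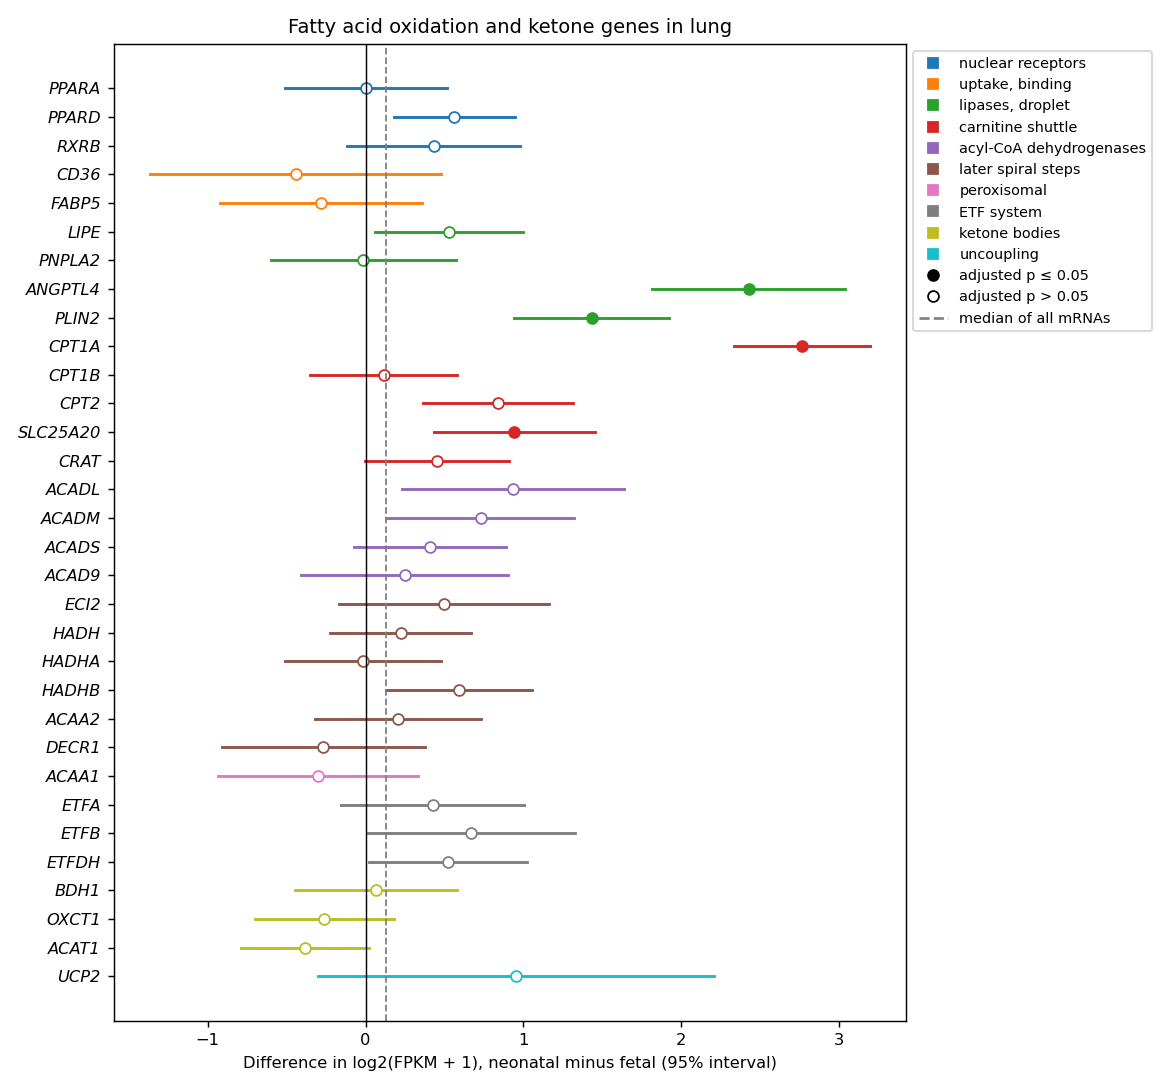
Difference in log2(FPKM + 1), neonatal minus fetal, for the 32 members, with lines for the 95% interval, colours for the step in the pathway, filled points for adjusted p of 0.05 or less and a dashed line at the median of all mRNAs (0.13). CPT1A and ANGPTL4 stand furthest to the right at 2.76 and 2.43, followed by PLIN2 at 1.43, and the enzymes of the spiral lie between -0.27 and 0.93.

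CPT1A (ENSSSCG00000012880) stood at 9.30, 7.71 and 11.1 FPKM before birth and 72.8, 67.6 and 66.1 FPKM after birth. The groups were far apart, and the highest neonatal value was 1.10 times the lowest. The difference was 2.76 (SE 0.18, 95% interval 2.33 to 3.20), with an adjusted p of 0.00125 in limma. It was the largest difference of any member and ranked 88 among all 14579 mRNAs. In the fetal samples 12 or more of the 32 members had a higher FPKM than CPT1A, which ranked 19, 18 and 13 among them, whereas it ranked 1 in each of the 3 neonatal samples. As in any bulk tissue, more cells of a type that uses a gene and more RNA of it per cell cannot be told apart.

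A second gene model, ENSSSCG00000012881, also carried the name CPT1A, so that the reads of this gene may have been divided between both models. That name came from the study's table of differentially expressed mRNAs, so the model was found only because these same data had called it. The second model stood at 9.59, 7.24 and 7.22 FPKM before birth and 53.4, 46.6 and 60.5 FPKM after birth. The groups of this model did not overlap either. Its difference was 2.60 (SE 0.19, 95% interval 2.15 to 3.05), with an adjusted p of 0.00143. It was not counted among the 32 members.

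SLC25A20, which exchanges acylcarnitine for free carnitine across the inner membrane, stood at 9.20, 7.24 and 10.6 FPKM before birth and 14.3, 20.1 and 20.4 FPKM after birth. Neonatal1 was the lowest of the neonatal samples but lay above every fetal sample. The difference was 0.94 (SE 0.22, 95% interval 0.44 to 1.45), with an adjusted p of 0.0464. This call was close to the threshold. It was lost without Fetal1, Fetal2, Fetal3, Neonatal2 or Neonatal3, with adjusted p-values between 0.0845 and 0.170.

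CPT2, which returns the acyl group to coenzyme A inside the mitochondrion, stood at 4.93, 4.19 and 5.93 FPKM before birth and 10.4, 7.95 and 10.99 FPKM after birth. The groups did not overlap. The difference of 0.84 (SE 0.20, 95% interval 0.36 to 1.32) had an adjusted p of 0.0538, and of 0.0429 when mRNAs with low FPKM were filtered out. CRAT, the carnitine acetyltransferase for short acyl groups, was at 21.0, 17.7 and 23.4 FPKM before birth and 25.6, 26.7 and 34.2 FPKM after birth, again without overlap, with a difference of 0.46 (adjusted p = 0.207).

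CPT1B, the form of the entry enzyme best known from muscle, was low in both groups, between 0.993 and 1.61 FPKM before birth and between 1.43 and 1.61 FPKM after birth. Its difference was 0.11, with a 95% interval of -0.35 to 0.58 (adjusted p = 0.756). Of the striated muscle markers 4 of 12 were matched, and none of these exceeded 3.90 FPKM in any sample. The FPKM of CPT1A was 9.37, 5.57 and 6.88 times that of CPT1B in the fetal samples and 51.1, 45.4 and 41.2 times in the neonatal samples. Beside CPT2, it was 1.89, 1.84 and 1.87 times in the fetal samples and 7.0, 8.51 and 6.02 times in the neonatal samples. Neither ratio overlapped between groups, and each had p = 0.1 in a two-sided exact permutation test, the smallest p that 3 against 3 samples can give (adjusted p = 0.133 over the 4 ratios that could be formed). A plain ratio of FPKM within a sample does not depend on scaling between samples. The values tested had 1 added to each FPKM, so they can shift with scaling where a gene is low, as CPT1B is.

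**Figure D2:**
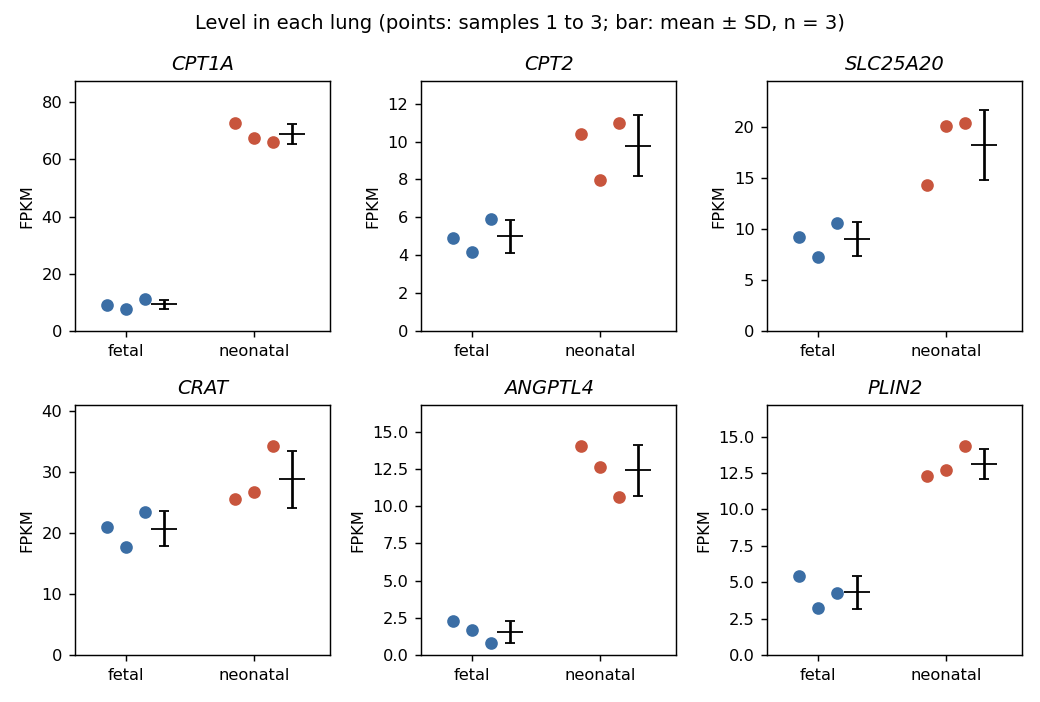
FPKM in each of the 3 fetal and 3 neonatal samples for CPT1A, CPT2, SLC25A20, CRAT, ANGPTL4 and PLIN2, with 1 panel per gene, points for samples, bars for mean ± SD and an axis from 0 in each panel. The neonatal samples of CPT1A lie between 66.1 and 72.8 FPKM, above the fetal samples at 7.71 to 11.1 FPKM, and the groups do not overlap in any of the panels.

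ANGPTL4, a PPAR target that holds back the uptake of lipoprotein fat, stood at 2.26, 1.64 and 0.777 FPKM before birth and 14.03, 12.7 and 10.6 FPKM after birth. All neonatal values were several times the highest fetal value. The difference was 2.43 (SE 0.26, 95% interval 1.82 to 3.04), with an adjusted p of 0.00453. PLIN2, which coats the lipid droplets of most cell types, was at 5.43, 3.19 and 4.28 FPKM before birth and 12.3, 12.7 and 14.3 FPKM after birth, a difference of 1.43 (SE 0.21, 95% interval 0.94 to 1.92, adjusted p = 0.0110). The PLIN2 call was lost without Fetal2, Neonatal2 or Neonatal3, with adjusted p-values of 0.0562, 0.0573 and 0.0585. In each of these cases 2 members passed as higher, CPT1A and ANGPTL4, and 163, 216 and 255 of all mRNAs did, in place of 789.

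The lipases that free fatty acids from stored fat did not pass. LIPE, the hormone-sensitive lipase, was at 2.26, 2.38 and 3.06 FPKM before birth and 4.01, 4.89 and 3.54 FPKM after birth, without overlap, with a difference of 0.53 (SE 0.20, adjusted p = 0.164). PNPLA2, the adipose triglyceride lipase, overlapped between groups, from 9.60 to 14.96 FPKM before birth and from 9.87 to 16.2 FPKM after birth (difference -0.01, adjusted p = 0.977). Of 6 adipocyte markers 2 were matched, and they differed widely. CIDEC, a droplet protein of fat cells, reached at most 1.49 FPKM, whereas CFD lay between 1305.5 and 2733.2 FPKM in the 6 samples.

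Neither measured gene of fatty acid uptake and binding passed the test. CD36, a fatty acid translocase that also marks macrophages and capillary endothelium, was at 20.3, 11.8 and 5.54 FPKM before birth and 7.21, 7.98 and 8.60 FPKM after birth. The neonatal values lay within the wide fetal range. The study's own test had called CD36, whose name came from its table of differentially expressed mRNAs, whereas limma did not. Its difference was -0.44, with a 95% interval of -1.37 to 0.48 (adjusted p = 0.526), and it was -0.04 without Fetal1 and -0.89 without Fetal3. FABP5, a cytosolic fatty acid carrier, was at 42.6, 29.2 and 40.4 FPKM before birth and 20.7, 34.8 and 38.0 FPKM after birth, with overlap and a difference of -0.28 (adjusted p = 0.564).

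Among the receptors, PPARA, the main regulator of these genes in liver, was low in both groups, at 0.983, 1.27 and 1.72 FPKM before birth and 1.30, 1.03 and 1.64 FPKM after birth. Its difference had a 95% interval of -0.51 to 0.51 (adjusted p = 0.995). PPARD, the widely expressed member of the family, was at 5.09, 4.95 and 5.51 FPKM before birth and 7.58, 8.28 and 8.53 FPKM after birth. The PPARD groups did not overlap, and the difference of 0.56 (SE 0.16) had an adjusted p of 0.0915. RXRB, a retinoid X receptor that pairs with the PPARs, overlapped between groups, with a difference of 0.43 (adjusted p = 0.303).

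The acyl-CoA dehydrogenases, which open each turn of the spiral and differ in the chain length they take, all had higher neonatal means, and none of the 4 passed. ACADL, for long chains, was at 3.93, 3.56 and 1.43 FPKM before birth and 5.72, 5.66 and 7.46 FPKM after birth, with a difference of 0.93 (SE 0.30, adjusted p = 0.114). ACADM, for medium chains, was at 12.5, 10.4 and 9.52 FPKM before birth and 13.6, 17.9 and 25.8 FPKM after birth, with a difference of 0.73 (SE 0.25, adjusted p = 0.136). Neither of these genes overlapped between groups. ACADS, for short chains, and ACAD9, which also serves in the assembly of respiratory complex I, overlapped, with differences of 0.41 and 0.25 (adjusted p = 0.271 and 0.623).

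Of the 6 measured mitochondrial enzymes of the later steps, none passed either. HADHA and HADHB, the alpha and beta subunits of the trifunctional protein that handles long chains, did not move alike in their values. HADHA was at 50.3, 42.2 and 51.6 FPKM before birth and 40.0, 44.6 and 59.6 FPKM after birth, with a difference of -0.01 and a 95% interval of -0.51 to 0.48 (adjusted p = 0.972). HADHB was at 9.45, 8.56 and 6.80 FPKM before birth and 13.1, 10.97 and 14.9 FPKM after birth, without overlap, with a difference of 0.59 (SE 0.20, adjusted p = 0.125). The FPKM of HADHA was 5.32, 4.93 and 7.59 times that of HADHB in the fetal samples and 3.06, 4.06 and 4.01 times in the neonatal samples. The ratios did not overlap, with p = 0.1 in the two-sided exact permutation test (adjusted p = 0.133).

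The other genes of these steps overlapped between groups. They were HADH, the short-chain hydroxyacyl dehydrogenase (difference 0.22, and -0.10 under quantile normalization, adjusted p = 0.509), ACAA2, a thiolase (0.21, adjusted p = 0.612), and ECI2 and DECR1, which prepare unsaturated fatty acids for the spiral (0.50 and -0.27, adjusted p = 0.327 and 0.587). ACAA1, the thiolase of peroxisomes, was between 4.21 and 6.81 FPKM before birth and between 3.31 and 6.16 FPKM after birth (difference -0.30, adjusted p = 0.533).

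The electron transfer flavoprotein, which takes the electrons of the dehydrogenases to ubiquinone, had higher neonatal means for all 3 genes, and none passed. ETFB was at 33.7, 18.9 and 25.9 FPKM before birth and 35.7, 56.3 and 34.5 FPKM after birth, with a difference of 0.67 (adjusted p = 0.198). ETFDH, the ubiquinone reductase of this system, was at 15.6, 12.0 and 17.7 FPKM before birth and 17.8, 24.4 and 23.9 FPKM after birth, with a difference of 0.52 (adjusted p = 0.191). Both were without overlap, by a narrow gap, whereas ETFA overlapped (difference 0.43, adjusted p = 0.334). The ratio of ETFA to ETFB differed by -0.24 on the log2 scale, with p = 0.5 in the two-sided exact permutation test.

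Taking the enzymes of the mitochondrial spiral and the electron transfer flavoprotein as 1 list of 13 measured genes, 11 had a higher and 2 a lower neonatal mean, which became 10 and 3 under quantile normalization. None passed in limma, beside 5.41% of all mRNAs, with adjusted p-values from 0.114 to 0.972, and 5 were higher at an unadjusted p under 0.05, or 38.5%, beside 17.6%. The median difference was 0.43. The neonatal samples differed among themselves on this list. Relative to the fetal mean, the median of the 13 genes was 0.03 in Neonatal1, 0.46 in Neonatal2 and 0.65 in Neonatal3, and it was 0.18, -0.18 and -0.03 in the fetal samples. Neonatal1 thus lay within the fetal range, and it exceeded all 3 fetal samples for 5 of the 13 genes, where Neonatal2 did for 9 and Neonatal3 for 13. Over all mRNAs the medians were 0.05, 0.13 and 0.19 in the same neonatal samples, and the share above all 3 fetal samples was 35.4%, 42.2% and 46.6%.

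**Figure D3:**
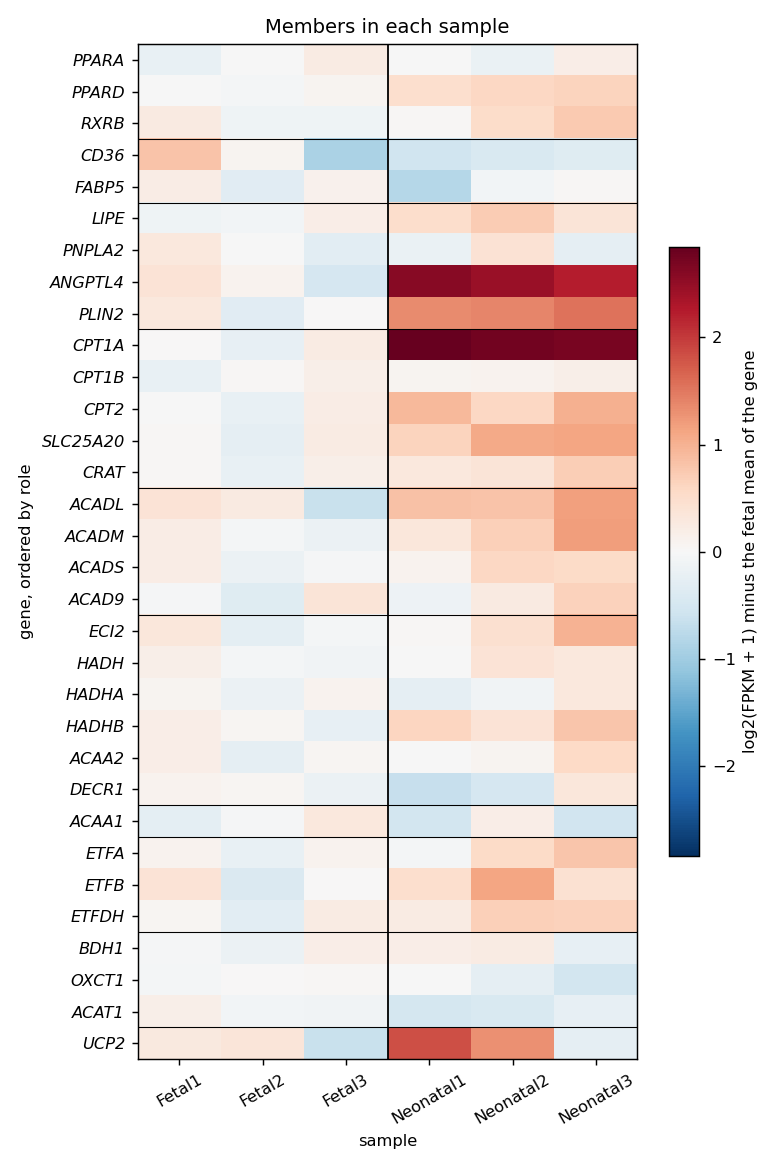
Heat map of the 32 members (rows, grouped by step) in the 6 samples (columns), coloured by log2(FPKM + 1) minus the mean of the fetal samples. CPT1A, ANGPTL4 and PLIN2 are high in all 3 neonatal samples, whereas most spiral enzymes are high in Neonatal2 and Neonatal3 and near the fetal level in Neonatal1.

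Markers of proliferating cells passed the test as higher, and the marker sums of some other cell types did not overlap between groups. The part of cell types in these results was not tested. All 7 measured markers of proliferating cells passed as higher, and their summed FPKM was between 9.98 and 13.2 in the fetal and between 84.8 and 102.8 in the neonatal samples. The sum of 7 alveolar type II markers was between 4875.5 and 5445.8 FPKM before birth and between 6596.7 and 11790.7 FPKM after birth, and that of 6 endothelial markers between 463.8 and 586.7 FPKM and between 639.3 and 871.2 FPKM. Neither of these sums overlapped between groups, although no single marker of either list passed. Most of the alveolar type II sum came from SFTPC (mean 3507.5 FPKM before and 6373.3 FPKM after birth). Of the 7 type II markers 3 were higher without overlap, 4 overlapped, and NAPSA had a lower mean after birth. The endothelial sum was carried by CLDN5, a tight junction protein (mean 229.3 FPKM before and 536.8 FPKM after birth), while 4 of the 6 markers had lower means after birth, KDR and EMCN without overlap. The sum of 7 macrophage markers overlapped, from 402.9 to 939.9 FPKM before birth and from 675.2 to 1592.1 FPKM after birth. None of the 7 passed the test, although all 7 had higher means after birth. In limma 4 of the 7 had an unadjusted p under 0.05, or 57.1%, beside 17.6% of all mRNAs in that direction. The sum of 4 mesenchymal markers was between 800.9 and 1018.6 FPKM and between 1023.5 and 1339.9 FPKM, most of it from the collagen gene COL3A1, with lower means after birth for 2 of the 4, FGF10 and DCN. That of 4 alveolar type I markers overlapped, from 837.2 to 1250.3 FPKM and from 721.3 to 1340.3 FPKM. None of the measured markers was at 0 in all samples. Outside the proliferation list, 1 marker passed, TNNT2 of striated muscle, as lower, from a mean of 1.73 to 0.0752 FPKM (adjusted p = 0.0125).

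None of the 3 ketone body genes passed the test. ACAT1, the mitochondrial thiolase shared by ketone and isoleucine breakdown, was at 25.0, 20.7 and 20.6 FPKM before birth and 15.4, 16.1 and 18.5 FPKM after birth. It was the only member with every neonatal value below every fetal value. The difference was -0.39 (SE 0.17, 95% interval -0.79 to 0.02), with an adjusted p of 0.226 and, under quantile normalization, of 0.0414. OXCT1, the enzyme that commits ketone bodies to use by transfer of coenzyme A, was at 10.4, 10.9 and 11.2 FPKM before birth and 10.8, 8.90 and 7.27 FPKM after birth, a difference of -0.26 (adjusted p = 0.436). BDH1, the hydroxybutyrate dehydrogenase, lay between 1.82 and 2.93 FPKM in all 6 samples (adjusted p = 0.879).

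UCP2, a carrier of the inner mitochondrial membrane, was at 5.55, 5.94 and 2.52 FPKM before birth and 18.2, 12.3 and 3.54 FPKM after birth. Neonatal3 lay within the fetal range, and the highest neonatal value was 5.14 times the lowest. The difference was 0.95, with a 95% interval of -0.30 to 2.21 (adjusted p = 0.319), and it was 1.56 without Neonatal3 and 0.52 without Neonatal1.

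A further list of 83 genes of the same pathways was examined beside the members, and 55 were measured. Of these, 3 passed as higher and 0 as lower, or 5.45% and 0%, beside 5.41% and 1.45% of all mRNAs. At an unadjusted p under 0.05 there were 12 higher and 3 lower, or 21.8% and 5.45%, beside 17.6% and 6.6% of all mRNAs. The median difference was 0.12, and 35 genes had a higher neonatal mean, which became 26 under median-of-ratios scaling and 25 under quantile normalization.

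The genes that passed belonged to different steps. RXRG, another retinoid X receptor, was at 4.98, 5.21 and 6.11 FPKM before birth and 10.1, 16.6 and 22.3 FPKM after birth, a difference of 1.37 (SE 0.28, adjusted p = 0.0332). LMF1, a factor needed for the maturation of lipoprotein lipase, was at 33.9, 24.1 and 27.5 FPKM before birth and 44.2, 65.1 and 69.9 FPKM after birth, a difference of 1.03 (SE 0.24, adjusted p = 0.0466). ACAT2, the cytosolic thiolase that also feeds sterol synthesis, was at 12.2, 11.8 and 10.1 FPKM before birth and 22.6, 30.01 and 36.7 FPKM after birth, a difference of 1.29 (SE 0.22, adjusted p = 0.0168). None of these overlapped between groups. All 3 calls were lost without Fetal1, Fetal2, Fetal3, Neonatal2 or Neonatal3.

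Both genes with the lowest differences of the 55 are known PPAR targets. PDK4, which blocks pyruvate dehydrogenase and so spares glucose when fat is burned, was at 43.7, 15.8 and 11.4 FPKM before birth and 8.10, 8.79 and 7.13 FPKM after birth. PLIN4, a lipid droplet protein of fat cells, was at 4.11, 2.54 and 1.14 FPKM before birth and 0.126, 0.751 and 0.266 FPKM after birth. Neither overlapped between groups and neither passed, with differences of -1.23 (SE 0.44, adjusted p = 0.145) and -1.32 (SE 0.35, adjusted p = 0.0708). Fetal1 was the highest sample for PDK4 and PLIN4, as it was for CD36 and ANGPTL4 among the fetal samples. Among the genes with higher means, ECHDC2, a protein of the hydratase family, differed by 1.14 (adjusted p = 0.0662), SLC25A42, the mitochondrial coenzyme A carrier, by 0.92 (adjusted p = 0.0903), and PPARG, the receptor of fat cells and alveolar macrophages, by 0.46 (adjusted p = 0.185).

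**Figure D4:**
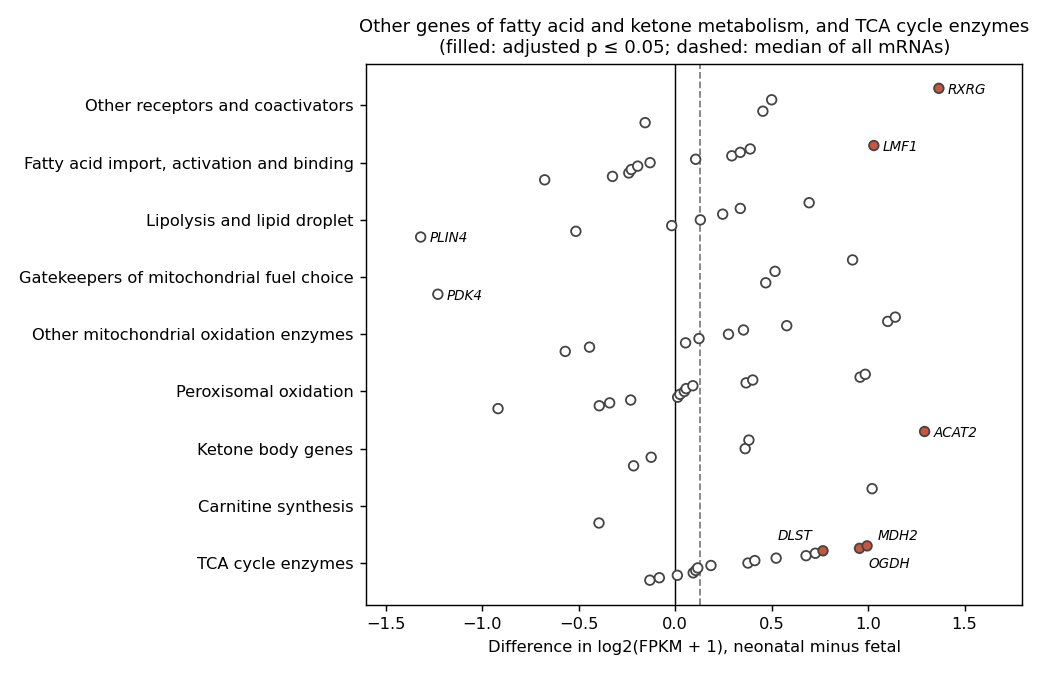
Difference in log2(FPKM + 1), neonatal minus fetal, for the 55 other measured genes of fatty acid and ketone metabolism by step and for 15 enzymes of the TCA cycle, with filled points for adjusted p of 0.05 or less and a dashed line at the median of all mRNAs. RXRG (1.37), ACAT2 (1.29) and LMF1 (1.03) pass the test, and PLIN4 (-1.32) and PDK4 (-1.23) lie furthest to the left without passing.

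The TCA cycle, which takes up the acetyl-CoA that the spiral releases, was compared with the 13 spiral and flavoprotein genes. Of its 15 measured enzymes 3 passed as higher, or 20.0%, beside 5.41% of all mRNAs, namely MDH2, the mitochondrial malate dehydrogenase (1.00, adjusted p = 0.0329), and OGDH and DLST of the oxoglutarate dehydrogenase complex (0.96 and 0.77, adjusted p = 0.0436 and 0.0483). All 3 of these calls too were lost without Fetal1, Fetal2, Fetal3, Neonatal2 or Neonatal3, and 2 TCA enzymes passed without Neonatal1, 2 under median-of-ratios scaling, 1 without the variance trend, 1 under quantile normalization and 0 with the replicate block. The median difference was 0.38, beside 0.43 for the 13 genes, and 13 of the 15 means were higher, which became 9 under median-of-ratios scaling and 8 under quantile normalization. Relative to the fetal mean, the median of the TCA enzymes was 0.08 in Neonatal1, 0.24 in Neonatal2 and 0.67 in Neonatal3. The difference between the lists was not tested.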

How the data were processed

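RNA of 6 lungs was sequenced by the authors from strand-specific libraries, 1 per piglet. The deposited mRNA table holds FPKM, which the authors computed with Cufflinks 2.2.1 after mapping to Sscrofa10.2, and all 14579 mRNAs exceeded 0.5 FPKM in at least 1 sample. The lncRNA table was not used. The table holds no read counts, so no counting error could be attached to a gene. Every SD given here is the spread among the 3 animals of a group. The SEs and intervals of the differences came from the limma fit described next. They drew on both groups and on a variance trend over all mRNAs, not on the spread within a group alone.

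For log2(FPKM + 1), a pseudocount of 1, all 6 samples entered 1 limma fit (version 3.58.1 under R 4.3.3) that let the variance follow mean expression. Benjamini-Hochberg adjustment ran over the 14579 mRNAs, and 0.05 was the threshold. The fit was also run on simulated data with independent noise and known upward changes. That simulation held no difference in scaling between samples, so it does not bear on such differences. Ratios, formed on the log2 scale after adding 1 to each FPKM, were tested by exact permutation in scipy 1.17.1 (Python 3.11.15).

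Names came from Ensembl for 9478 identifiers and from the study's table of differentially expressed mRNAs for 329, and 4772 had none. The members and lists were chosen with earlier results of these data known. All members could be named, and of the other pathway genes those past the threshold and at most 3 per list and direction of the rest. Ratios of FABP4 to FABP5 and of UCP2 to UCP3 could not be formed, and promoter sequences were not analysed here. Alternatives were other pseudocounts, a filter on FPKM, other scalings, no trend, a replicate block, each sample left out and, chosen after seeing the data, the second CPT1A model and the members named by Ensembl alone.

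Same-numbered samples came from different sows, and their deviations from the group means correlated at -0.04, -0.004 and 0.0005, so the numbers did not pair the samples.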

Additional observations from a re-analysis of the deposited data

How the results depend on the processing

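CPT1A and ANGPTL4 passed under every alternative. CPT1A also passed by its second gene model, which was chosen after seeing the data. That model was named from the study's table of differentially expressed mRNAs, so its passing adds no separate support. The members called higher numbered 4, and 2 to 4 with a sample left out, 3 under median-of-ratios scaling, without the variance trend and with the replicate block, and 5 with the FPKM filter. SLC25A20 was lost in those 3 settings (adjusted p = 0.0520, 0.0550 and 0.111). With the replicate block, calls over all mRNAs went from 789 higher and 212 lower to 336 and 65, and the other pathway genes called higher from 3 to 0. That count was 0 to 3 with a sample left out. The samples share only a number, so the block is no pairing.

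Quantile normalization called 1 member lower, ACAT1, gave 3 members lower without overlap and put the median of the members at 0.20, beside -0.04 for all mRNAs. With a sample left out that median was 0.26 to 0.54, the members lower without overlap numbered 2 each time, and those higher without overlap, 13 with all samples, numbered 13 to 18. Both scalings gave 9 of the latter. The share of all mRNAs without overlap was not taken in these settings, and fewer samples make separation easier for any gene. The calls over all mRNAs were 650 higher and 335 lower under median-of-ratios scaling and 671 and 487 under quantile normalization.

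Some differences near 0 changed sign. Under both scalings PPARA came to -0.10 and BDH1 to -0.057 and -0.056, and HADH to -0.10 under quantile normalization. With a sample left out, PPARA ranged from -0.11 to 0.12, BDH1 from -0.025 to 0.22, HADHA from -0.18 to 0.10 and PNPLA2 from -0.23 to 0.13. The cause of these changes was not tested. Without read counts, the precision of genes near 1 FPKM is unknown.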

Other observations

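The neonatal samples were not alike across the members. Neonatal3 held the highest neonatal value for 20 of the 32 members, or 62.5%, and Neonatal1 the lowest for 19, or 59.4%, beside 43.8% and 46.6% of all mRNAs. For the 13 genes of the spiral and the electron transfer flavoprotein, Neonatal3 was highest for 9 and Neonatal1 lowest for 10. The 4 members with their highest neonatal value in Neonatal1 were CPT1A, ANGPTL4, UCP2 and OXCT1, although the second CPT1A model was highest in Neonatal3. The median-of-ratios size factor was 1.00 in Neonatal1, 1.09 in Neonatal2 and 1.15 in Neonatal3. No test was made of these orders, which rest on 1 piglet each.

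Peroxisomal oxidation, which shortens very long and branched fatty acids, had 13 measured genes on the further list, of which none passed in either direction. Of all mRNAs 5.41% passed as higher and 1.45% as lower. Without overlap, 3 of the 13 genes were higher after birth and 2 lower, or 23.1% and 15.4%, beside 20.9% and 9.64% of all mRNAs. PECR, a trans-enoyl-CoA reductase, differed by 0.99 (adjusted p = 0.193). DECR2, which removes double bonds, was at 13.2, 15.1 and 25.2 FPKM in the fetal and 5.62, 12.0 and 9.37 FPKM in the neonatal samples, without overlap, with a difference of -0.92 (adjusted p = 0.142).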
